A study of Bos taurus with 6 samples.

Results

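The spots described here carry 4 sequence names, NM_178320, AY141970, AF176811 and TC86860, that were printed 13 times each on a spotted bovine oligonucleotide array. They were found by exact match of the probe name in all 6 scanner files and make up 52 of the 23232 spots of an array. NM_178320 is the accession of bovine PPIA, which encodes cyclophilin A, in the RefSeq gene table of assembly ARS-UCD2.0. The other names had no match there, the gene name field of the files is empty, and they are therefore given by name alone. The 4 were picked from earlier results of these arrays, in which their brightness and their embryo/control ratio were known, so all levels and ratios between the conditions are a description with no test.

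The embryo samples were RNA of bovine oviduct epithelial cells kept for 13 days in culture, with in vitro produced embryos added on day 5 and present for 8 days. The control samples were RNA of the same kind of culture, at the same 13 days and in the same SOF medium, without embryos. There were 3 biological replicates of each, and each replicate pair was hybridised on 2 arrays with the dyes Cy5 and Cy3 exchanged, which gives 6 arrays and 3 replicate ratios. The cells came from slaughterhouse oviducts whose cycle stage was not taken into account, and the sources used here do not say whether a pair shared its donors or whether embryos were removed before extraction. With unnamed probes the epithelial identity of the cells could not be checked against markers. The headers give 3 scan days, 1 for each replicate, and each day held both conditions. Embryo RNA here means the RNA of the cultures with embryos, and control RNA that of the cultures without. An array is called an embryo-Cy5 array where Cy5 labelled the embryo RNA and Cy3 the control RNA, and a control-Cy5 array where the dyes were exchanged.

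The oviduct epithelium is made of secretory and ciliated cells and surrounds the embryo during its first divisions. Cyclophilin A is an abundant cytosolic enzyme that helps proteins fold by turning peptide bonds before proline, and it is the receptor of the drug ciclosporin. Its transcript is often used as a reference in RT-qPCR because it is expressed in nearly all cells. Reference names repeated over a slide are a common way to follow printing, labelling and hybridisation.

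No spot is marked as a control in the scanner files' control type field, where all 23232 spots of each array have the same entry. The names stand apart by their layout. The 4 names lie only in spot row 9 of the print blocks, as do all 380 spots of the 29 names used as controls here. Each name has its 13 spots in 13 different blocks of the 48. An empty-spot limit was set in each channel at the 95th percentile of the signal of its 1220 empty spots, which held buffer or no oligonucleotide. Of the 29 names, 8 had a median signal over the limit in all 12 channels, and the 4 described here are among them. Ordered by the lowest channel median, U17836 was the nearest inside with 1.17 times the limit, and TC99448 the nearest outside with 0.533 times. TC99448 passed in 8 channels, and Rn_Control_07, with a lowest median of 0.468 times the limit, in 9.

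All spots of the 4 names were over the empty-spot limit in every channel. The spot nearest to the empty-spot limit was still at 4.69 times it, and it was a PPIA spot in the Cy3 channel, in control RNA of replicate 1. The median signals ran from 6.2 times the limit for PPIA to 275 times for AF176811. The limit itself was higher in Cy3, at 126 to 286 scanner units, than in Cy5, at 55 to 73. None of the 52 spots was saturated on any array. The scanner's own well-above-background flag was set for all 52 in both channels, but also for 100% of the empty spots, so it carried no information.

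The spike names, 10 names that start with Alien and were taken as spikes from that name, had medians below every spot of the 4 reference names in each channel. Of the 10, 0 passed the empty-spot limit in all 12 channels, but all 10 passed it in 1 channel. In the Cy5 channel of the embryo-Cy5 arrays, which held embryo RNA, 0, 3 and 1 of the 10 passed it in replicates 1, 2 and 3. In the Cy5 channel of the control-Cy5 arrays, which held control RNA, 10, 9 and 5 of the 10 passed it. In Cy3 the numbers were 3 on the control-Cy5 array of replicate 1 and 0 on the other 5 arrays. In the Cy5 channel of the control-Cy5 array of replicate 1 the spike names had medians of 119 to 260 units, over a limit of 67, while the lowest reference spot there had 1832. Passing the limit was not particular to the spike names. Names that start with Rn_Control passed it in 1 to 9 of the 12 channels, and the spike names in 1 to 5. The highest channel median was 1.88 to 3.86 times the limit for the Rn_Control names and 1.77 to 3.87 times for the spike names. The share of probes over the limit in single channels was not counted. The sources used here do not say whether spike RNA was added.

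**Figure D1:**
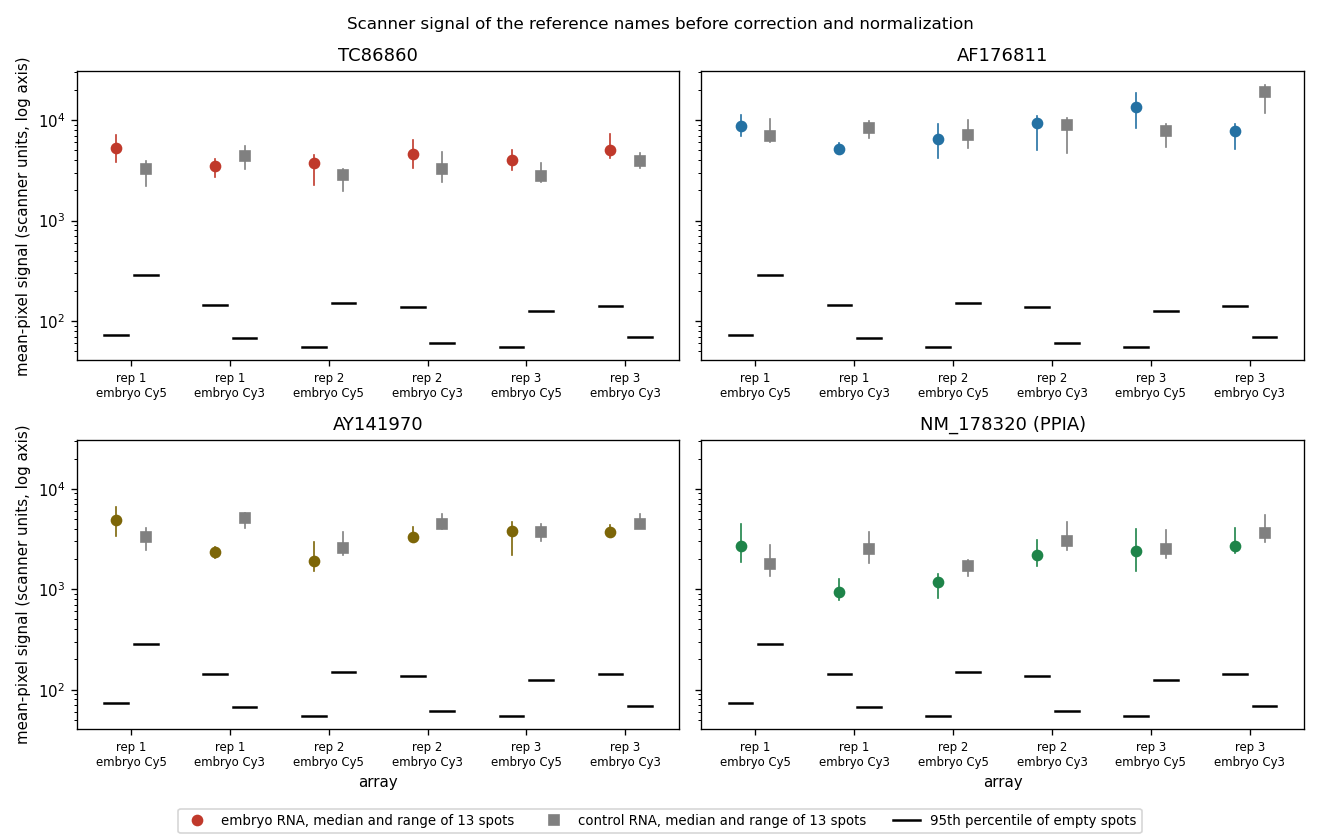
Mean-pixel signal of each name on the 6 arrays in scanner units (log axis), with embryo RNA (coloured circles) left of control RNA (grey squares). Points are medians and lines the range of 13 spots, and black bars are the empty-spot limit of that channel (95th percentile), which lies below every spot of the 4 names.

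TC86860 was brighter in embryo RNA than in control RNA on every array once the ratios were normalised. Its median signal in replicate 1 was 5285 in embryo RNA against 3230 in control RNA with embryo RNA in Cy5, and 3473 against 4418 with the dyes exchanged. In replicate 2 it was 3754 in embryo RNA against 2839 in control RNA, and 4579 against 3242 with the dyes exchanged. In replicate 3 it was 4039 in embryo RNA against 2764 in control RNA, and 5094 against 3960 with the dyes exchanged. Before any normalisation embryo RNA was thus brighter on 5 of the 6 arrays, and the exception was the control-Cy5 array of replicate 1, on which Cy5 gave the higher signal for all 4 names.

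After background correction and loess, which removes the intensity-dependent dye difference of each array, the log2(embryo/control) of TC86860 was 0.32 and 0.54 on the arrays of replicate 1, 0.67 and 0.85 on those of replicate 2, and 0.30 and 0.83 on those of replicate 3. The embryo-Cy5 array is given first in each pair, and in each replicate the control-Cy5 array had the higher ratio. The replicate ratios were 0.43, 0.76 and 0.57, with a mean of 0.58 ± 0.164 (SD, n = 3), or 1.5-fold, between 1.35-fold and 1.69-fold in single replicates. With all 13 spots used, 78 of 78 spot ratios over the 6 arrays were above 0, and each of the 13 positions was above 0 on all arrays. Spots of an array are technical repeats, so these counts add nothing to the 3 replicate ratios, which were known when the name was chosen. Single spots ran from 0.13 to 1.08. RNA of whole cultures was measured, and whether embryos were removed first is not stated. A different share of a cell type, a different amount of transcript per cell and RNA from the embryos themselves therefore cannot be told apart.

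Of the 4 names, TC86860 was the only one above 0 in all 3 replicates and on all 6 arrays. Over the probes and control names measured on all arrays, 18.8% of 17283 were above 0 in all 3 replicates and 2.31% on all 6 arrays. Of the 1787 over the empty-spot limit in all 12 channels these shares were 16.6% and 2.57%. A mean of 0.5 or more, which TC86860 also had, was found for 0.15% of all and 0.56% of the 1787. TC86860 was chosen with this ratio known, so nothing is read from these shares.

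On the scale of normalised log2 levels per RNA, after loess and quantile adjustment of mean intensity between arrays, TC86860 was at 12.36, 12.47 and 12.14 in the 3 embryo RNAs and at 11.93, 11.72 and 11.58 in the 3 control RNAs. The groups did not overlap, and the means were 12.33 ± 0.169 and 11.74 ± 0.18 (SD, n = 3 each) in embryo and control RNA. For the other 3 names the embryo and control levels overlapped. The share of all features without overlap was not counted, and TC86860 was chosen with its ratio known. Nothing is therefore read from the lack of overlap.

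PPIA was close to even between the conditions, and in replicate 1 its dye-swap arrays gave opposite directions. Its median signal in replicate 1 was 2690 in embryo RNA against 1775 in control RNA with embryo RNA in Cy5, and 930 against 2542 with the dyes exchanged. In replicate 2 it was 1180 in embryo RNA against 1690 in control RNA, and 2208 against 3032 with the dyes exchanged. In replicate 3 it was 2394 in embryo RNA against 2524 in control RNA, and 2714 against 3668 with the dyes exchanged. Unnormalised, embryo RNA was brighter on 1 of the 6 arrays.

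The normalised log2(embryo/control) of PPIA was 0.26 and -0.66 on the arrays of replicate 1, -0.15 and -0.15 on those of replicate 2, and 0.05 and -0.01 on those of replicate 3. Both arrays of replicates 2 and 3 gave nearly equal values, whereas those of replicate 1 lay on opposite sides of 0. The replicate ratios were -0.20, -0.15 and 0.02, with a mean of -0.11 ± 0.114 (SD, n = 3), 0.927-fold. With loess the mean was smaller than its SD. The mean was below 0 under 14 of 16 alternative settings. It was above 0 under 2, median centring in place of loess (0.06) and the embryo-Cy5 arrays alone (0.05). With the scanner's processed signals it was -0.30 ± 0.0325 (SD, n = 3). The level was 10.78, 11.18 and 11.41 in embryo RNA against 10.98, 11.33 and 11.40 in control RNA on the normalised log2 scale. In both conditions it was lowest in replicate 1.

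AY141970 had the smallest SD between replicates among the 4 names with loess, but not with median centring (0.197, against 0.0292 for TC86860) or processed signals (0.0853, against 0.0325 for PPIA). Its median signals were 4859 in embryo RNA against 3275 in control RNA and, with the dyes exchanged, 2365 against 5088 in replicate 1. They were 1920 in embryo RNA against 2561 in control RNA and, with the dyes exchanged, 3344 against 4462 in replicate 2. In replicate 3 they were 3792 in embryo RNA against 3724 in control RNA and, with the dyes exchanged, 3690 against 4488. After normalisation the 6 arrays lay between -0.21 and 0.17, and the replicate ratios were -0.02, -0.05 and 0.08, with a mean of 0.00 ± 0.0668 (SD, n = 3). The mean was 0.18 with median centring in place of loess and -0.20 with the scanner's processed signals, so its place against 0 depended on the scaling. Its levels were 11.97, 11.90 and 11.80 in embryo RNA and 11.99, 11.95 and 11.72 in control RNA.

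AF176811, the name with the largest signals of the 4, had ratios near 0 in replicates 1 and 3 that were averages of arrays on opposite sides of 0. In replicate 3 its median signal was 13380 in embryo RNA against 7744 in control RNA on the embryo-Cy5 array, and 7719 against 19067 with the dyes exchanged. The Cy5 channel was thus the brighter one on both arrays of replicate 3, whichever RNA it held. In replicate 1 the signals were 8679 in embryo RNA against 6942 in control RNA, and 5112 against 8274 with the dyes exchanged. In replicate 2 they were 6537 in embryo RNA against 7155 in control RNA, and 9397 against 8861 with the dyes exchanged.

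The normalised log2(embryo/control) of AF176811 was -0.35 and 0.28 on the arrays of replicate 1, 0.14 and 0.50 on those of replicate 2, and 0.83 and -0.84 on those of replicate 3. In replicate 3 all 13 spots were above 0 on the embryo-Cy5 array and 0 of 13 on the control-Cy5 array, the same split as in the unnormalised signals. The replicate ratios were -0.03, 0.32 and -0.01, with a mean of 0.09 ± 0.197 (SD, n = 3). The mean was 0.29 ± 0.053 with median centring and -0.11 ± 0.278 with processed signals (SD, n = 3 each), and -0.02 without replicate 2, so this name had no settled direction. Its levels were 13.03, 13.73 and 13.17 in embryo RNA against 13.06, 13.41 and 13.18 in control RNA.

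**Figure D2:**
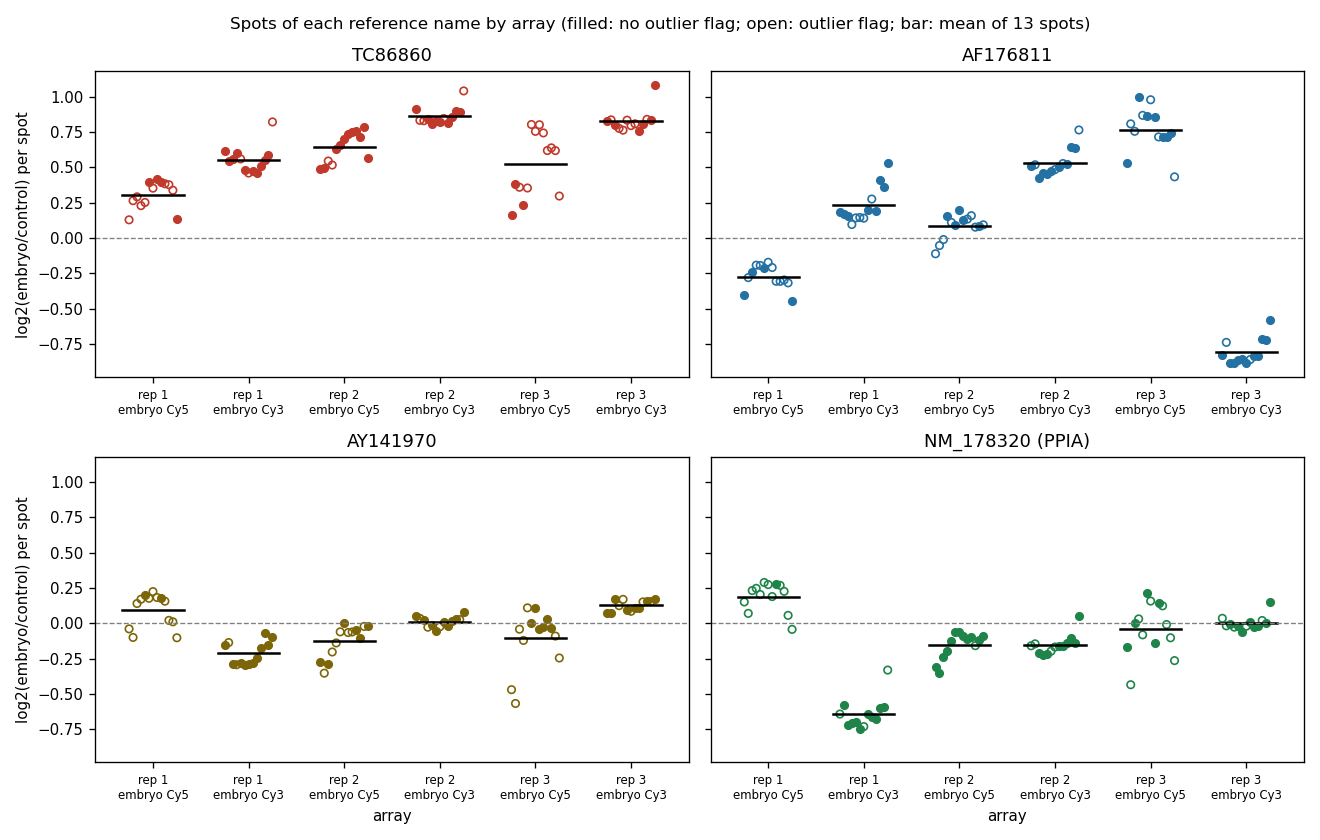
Normalised log2(embryo/control) of each of the 13 spots of a name on each array, in order of print block from left to right. Filled points carry no outlier flag, open points carry one, and bars are means of 13 spots. Spots of an array are technical repeats and not replicates. TC86860 lies above 0 in 78 of 78 spots, and AF176811 lies on opposite sides of 0 on the arrays of replicate 3.

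The difference between names on the same array does not depend on a constant that scales the whole array. TC86860 exceeded PPIA in log2(embryo/control) on all 6 arrays, by 0.05 to 1.20, and by 0.63, 0.91 and 0.55 in replicates 1, 2 and 3. The 0.05 was on the embryo-Cy5 array of replicate 1, where PPIA rested on 1 unflagged spot. With all 13 spots used, the ratios there were 0.30 for TC86860 and 0.19 for PPIA. TC86860 exceeded AY141970 on all 6 arrays as well, by 0.15 to 0.84, with a mean over replicates of 0.58 ± 0.198 (SD, n = 3). Against AF176811 the difference was -0.53 on the embryo-Cy5 array of replicate 3 and above 0 on the other 5 arrays. AY141970 exceeded PPIA by 0.11 ± 0.0635 (SD, n = 3) and was higher on 5 of 6 arrays. These differences were seen in the ratios that chose the names and are given without a test.

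The dye was not part of the rule that chose the names. The dye term of a replicate is the mean of log2(Cy5/Cy3) over its dye-swap arrays, in which the difference between embryo and control RNA cancels. It was taken after loess, so its sign is relative to the curve of each array and not to the scanner signals. PPIA had dye terms of 0.46, 0.00 and 0.03 in replicates 1, 2 and 3, and AY141970 had 0.19, -0.06 and -0.03. AF176811 had -0.32, -0.18 and 0.83, so after loess it lay below 0 in replicates 1 and 2 and above 0 in replicate 3. In the unnormalised signals of replicate 1 it was brighter in Cy5 on both arrays. TC86860 had -0.11, -0.09 and -0.27 after loess, whereas its unnormalised signal was higher in Cy5 on both arrays of replicate 1. On the embryo-Cy5 array of replicate 3 it rested on 3 unflagged spots. With all 13 spots used its dye terms were -0.13, -0.11 and -0.15. The mean dye term of TC86860 was 0.00 with median centring in place of loess.

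None of the 4 names passed limma's test of the dye term against 0 in a fit over 19993 probes and control names. By this test 0 of the 19993, or 0%, passed 0.05 after Benjamini-Hochberg adjustment, and 4334, or 21.7%, had an unadjusted p under 0.05. TC86860 had a mean dye term of -0.16 ± 0.0605 (SE, limma unadjusted p = 0.0406, adjusted p = 0.216). With outlier spots kept it was -0.13 (limma adjusted p = 0.226). An unadjusted p under 0.05 and a dye term below 0 was found for 10.3% of all features, and one above 0 for 11.4%. PPIA was at 0.16 (limma adjusted p = 0.361), AF176811 at 0.11 (adjusted p = 0.768) and AY141970 at 0.03 (adjusted p = 0.789). A replicate 3 dye term of 0.5 or more, as AF176811 had, was found for 0.617% of 19124 features and 0.278% of the 2873 over the empty-spot limit, a value of 0.5 chosen after the values were seen. Whether the dye term of AF176811 differs between replicates was not tested, since each replicate has 1 pair of arrays, and replicate and scan day cannot be told apart.

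**Figure D3:**
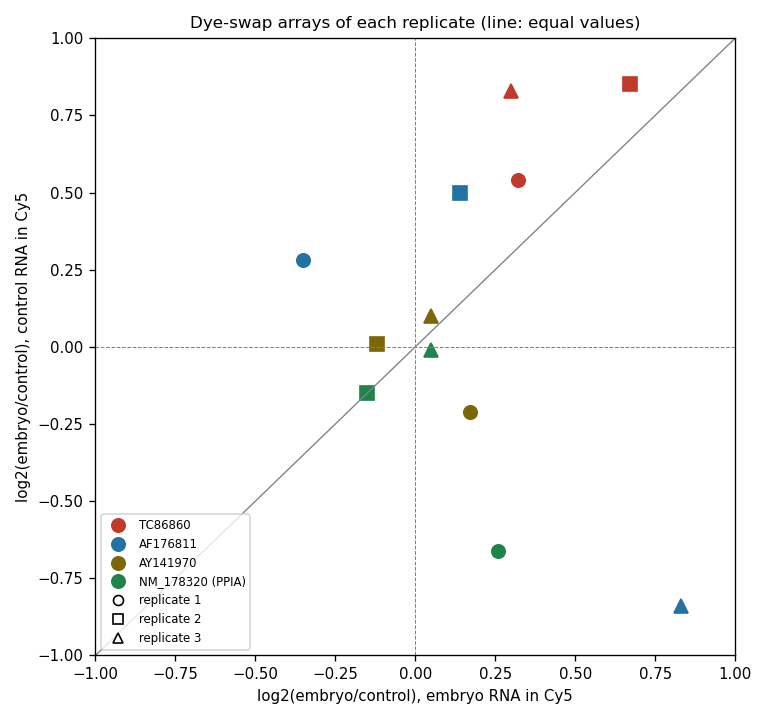
Normalised log2(embryo/control) on the embryo-Cy5 array (horizontal) against the control-Cy5 array (vertical) for each name and replicate. Points on the line have equal values on both arrays; the 3 TC86860 points lie above 0 on both axes, and the AF176811 point of replicate 3 lies at 0.83 and -0.84.

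The spots of a name repeated each other closely within an array. The SD of the normalised log2(embryo/control) over all 13 spots was 0.0958 at the median of the 24 combinations of name and array, and ran from 0.0366 to 0.229. The signals themselves varied more, with SDs of 0.0875 to 0.369 on the log2 scale, but both channels of a spot moved together, with correlations over the 13 spots of 0.43 to 0.98 and a median of 0.94. The gap between the arrays of a replicate averaged 0.89 for AF176811, 0.327 for PPIA, 0.314 for TC86860 and 0.186 for AY141970. These averages were 1.92 to 4.51 times the SD of the replicate ratios. A gap compares single arrays, whereas each replicate ratio averages both arrays, so the multiples do not set like against like. For PPIA the average gap rested on replicate 1, with gaps of 0.92, 0.00419 and 0.0557 in replicates 1, 2 and 3. For AY141970 the gaps were 0.376, 0.126 and 0.0564. The gap was thus below the median SD of the spots for PPIA in replicates 2 and 3 and for AY141970 in replicate 3, and above it for the other pairs. Spots of an array are technical repeats of 1 hybridisation and were not counted as replicates.

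Spots at the same position tended to deviate in the same direction on different arrays. Across the 13 spots of TC86860, log2(Cy5/Cy3) correlated between arrays at 0.16 to 0.93, with a median of 0.69 over 15 pairs of arrays. The medians were 0.71 for AF176811, 0.66 for PPIA and 0.33 for AY141970, and the lowest pairs were -0.03, -0.18 and -0.43. The points share the slide design, the printing and the loess curve, and the correlations are given as a description.

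Many of the 52 spots carried an outlier flag of the scanner software, set for uneven pixels or for population outliers. It was set for 41 of 52 on the embryo-Cy5 array of replicate 1 and for 13 of 52 on its control-Cy5 array. In replicate 2 it was set for 18 and 16 spots, and in replicate 3 for 31 and 19, in the same order. The share was 25% to 78.8% of the reference spots per array, against 1.29% to 10.4% of all probe spots. All reference spots were over the empty-spot limit, and the flagged share of probe spots over that limit was not counted. Of 3133 features over the limit with at least 2 replicates, 1787 had all 3, against 17283 of 19993 features in all. Whether the reference spots were flagged more often than equally bright probe spots was therefore not tested. Flagged spots were left out of the ratios, so the embryo-Cy5 array of replicate 1 rested on 1 spot for PPIA, 2 for AY141970 and 4 each for AF176811 and TC86860. On the embryo-Cy5 array of replicate 3, TC86860 rested on 3 spots.

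The flagged spots were the dimmer and more uneven ones. In 24 of 24 combinations of name and array the flagged spots had a lower median signal than the kept ones in both channels, and a higher pixel variation in the embryo channel. Uneven pixels are among the reasons for the flag, so the higher variation is no separate finding. For PPIA on the embryo-Cy5 array of replicate 1, the pixel SD was 53.6% of the mean in flagged spots and 34% in the kept one. With all 13 spots used, the mean log2(embryo/control) was 0.62 ± 0.168 for TC86860, 0.09 ± 0.189 for AF176811, -0.04 ± 0.0395 for AY141970 and -0.13 ± 0.105 for PPIA (SD, n = 3 each). On the embryo-Cy5 array of replicate 3 the log2 ratio of TC86860 was 0.52 with all 13 spots, against 0.30 with the 3 kept ones.

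The embryo-Cy5 array of replicate 1 had a raised Cy3 signal on empty spots at one end, in print blocks 37 to 48. There the 95th percentile of the empty spots was 413 units, against 144 in the other blocks. The 4 names had 3 or 4 spots each in these blocks. With all spots used, the log2(embryo/control) inside and outside them was 0.28 and 0.31 for TC86860, 0.08 and 0.22 for PPIA, 0.02 and 0.13 for AY141970, and -0.34 and -0.25 for AF176811. Each name was lower inside. The SD of the 13 spots on that array was 0.0971 for TC86860, 0.102 for PPIA, 0.119 for AY141970 and 0.0836 for AF176811. Whether the spots inside differed from those outside was not tested. Without these blocks the mean over replicates was 0.59 for TC86860 and -0.11 for PPIA.

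The probes whose levels followed PPIA most closely were Bt00005988 and Bt00003048. Their Pearson correlation with PPIA over the 12 channel levels was 0.97 each, the highest among 1780 probes over the empty-spot limit, where the median was 0.41. Among the other reference names it was 0.49 for AY141970, 0.30 for AF176811 and -0.10 for TC86860. The 12 points come from 6 arrays and share their array and dye effects. The mean log2(embryo/control) of Bt00005988 was -0.04 ± 0.136 and that of Bt00003048 -0.15 ± 0.105 (SD, n = 3 each).

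The scaling moved the 4 names together with the other bright features. The median log2 ratio of the features over the empty-spot limit was 0.14 when median centring took the place of loess, -0.21 when the scanner's processed signals were median centred, and -0.01 with loess. Relative to that median, TC86860 was at 0.59 with loess, 0.63 with median centring and 0.60 with processed signals. PPIA was at -0.10, -0.08 and -0.09, AY141970 at 0.01, 0.05 and 0.00, and AF176811 at 0.10, 0.15 and 0.09 under the same 3 settings. The distances between the names and the bright features were thus nearly the same under the 3 scalings, while the values against 0 were not.

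**Figure D4:**
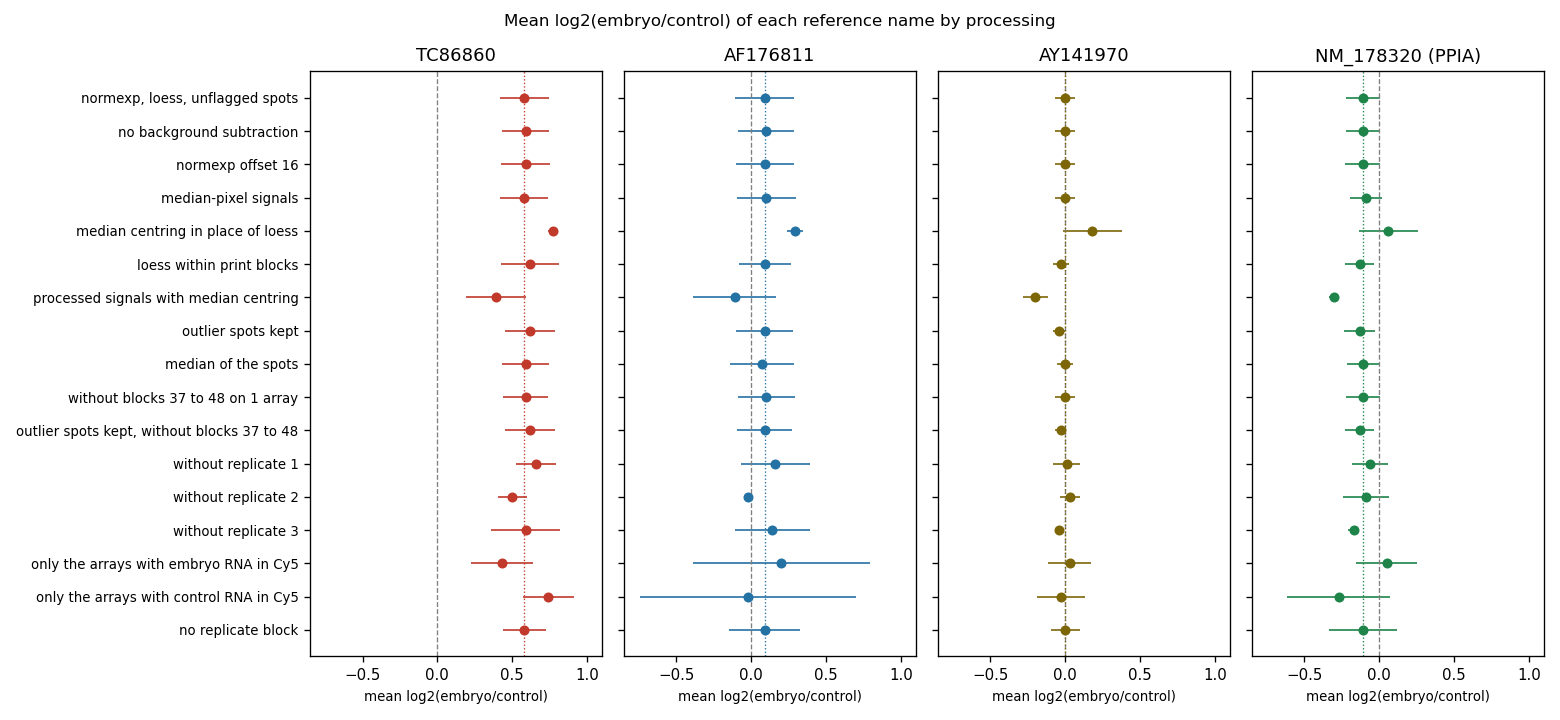
Mean log2(embryo/control) of each name (horizontal) under each processing (rows). Lines are the SD over replicates, over the 3 arrays where 1 dye orientation was used, or the SE of the difference with no replicate block; the dotted line is the value with normexp, loess and unflagged spots, and TC86860 lies between 0.39 and 0.77 throughout.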

How the data were processed

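Each deposited scanner file lists intensities per spot for Cy5 and Cy3: pixel means, pixel medians and local backgrounds, none of them normalised, and processed signals from which background was subtracted and dye bias removed. Per the file headers the scanner software was Feature Extraction, version 9.1.3.1. The names, lists and tests were chosen with earlier results of these data known. Named probes were the 4 reference names and the 2 probes most correlated with PPIA.

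Mean signals were corrected with normexp (offset 50), and log ratios by a loess curve per array fitted to unflagged probe spots only (limma 3.58.1, R 4.3.3). Spots flagged as uneven or as population outliers, and 2 spots with a background outside the scanner's range, were left out. Print blocks were taken from spot numbers. Ratios were turned to embryo/control by the labels' dyes, and averaged over spots of a name and then over both arrays of a replicate. The dye term was tested with lmFit and eBayes, two-sided, on features with at least 2 replicates, and the fit was tested on simulated data. The authors' deposited value table holds none of the 4 names and was not used. Embryo and control RNA of a replicate number share their arrays, so the numbers pair the samples by array. Around their group means they deviated together (correlations 0.684, 0.683 and 0.791 over features). Both levels come from channels of the same arrays, so these correlations cannot show whether the cultures themselves were paired. The number of arrays limits the precision.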

Additional observations from a re-analysis of the deposited data

Results flagged for a closer look

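Besides the 4 reference names, 4 other names printed in row 9 had median signals over the empty-spot limit in all 12 channels, a signal that the comparison of embryo with control did not use. Their lowest channel median was 12.4 times that limit for TC152369, 1.62 times for TC36320, 1.44 times for TC69434 and 1.17 times for U17836. The mean log2(embryo/control) was 0.12 ± 0.0235 for TC152369, 0.02 ± 0.095 for TC36320, 0.07 ± 0.0941 for TC69434 and -0.05 ± 0.0855 for U17836 (SD, n = 3 each).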

How the results depend on the processing

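TC86860 stayed above 0 under all 16 alternatives, between 0.39 and 0.77. Median centring gave 0.77 for TC86860, 0.18 for AY141970, 0.06 for PPIA and 0.29 for AF176811, and processed signals with median centring gave 0.39, -0.20, -0.30 and -0.11 in the same order. PPIA was at 0.05 on embryo-Cy5 arrays alone and at -0.27 on control-Cy5 arrays alone. Without single replicates the ratios ran from 0.50 to 0.66 for TC86860, -0.17 to -0.06 for PPIA, -0.04 to 0.03 for AY141970 and -0.02 to 0.16 for AF176811. Other settings moved each ratio by less than its replicate SD. Dropping the replicate block could not move the means, since each replicate has the same number of arrays (0.58, -0.11, 0.00 and 0.09 in that order). It is counted among the 16 alternatives but is no check of the ratios. Leaving out print blocks 37 to 48 was chosen after seeing the data. The SD over the kept spots of an array had a median of 0.0844, and 0.0791 to 0.0958 under its 3 alternatives.

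No dye term of the 4 passed an adjusted p of 0.05 in limma under any alternative. The sign turned for AY141970 with processed signals (-0.11), with outlier spots kept, with or without print blocks 37 to 48 (-0.01), and without replicate 1 (-0.05; 0.08 without replicate 2). It turned for AF176811 with processed signals (-0.03) and without replicate 3 (-0.25, against 0.33 without replicate 1). For TC86860 the term was 0.00 with median centring and below 0 under the other alternatives. The count of features past 0.05, 0 with loess over all features, was 1909 with median centring, 6 over the empty-spot limit and 3 over a mean log2 intensity of 8, and it stayed at 0 with a random replicate block and under the other 8 alternatives. The cause was not tested.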
